A study of Homo sapiens with 6 samples.

Results

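The RAB GTPases of membrane traffic were taken as every gene of the deposited count table whose symbol is RAB followed by a number and, at most, a letter and a further digit. The rule found 55 of the 17042 genes in the table, and 49 of the 55 had enough counts to be tested, among 13405 tested genes. Of the 55, 54 are RAB genes and 1, RAB43P1, is a processed pseudogene of RAB43.

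RAB proteins are small GTPases that switch between a GTP-bound, active form on a membrane and a GDP-bound, inactive form. Each marks its own compartment, where it recruits the effectors that bud, move, tether and fuse vesicles. Exchange factors load GTP, GTPase-activating proteins end the active state, and escort and GDI proteins deliver the lipid-modified RAB to membranes and take it off again. In macrophages the same machinery takes up receptors and particles, matures phagosomes and feeds lysosomes.

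Messenger RNA was measured in the human monocytic leukaemia line THP-1, in 3 libraries of RP11-184M15.1 knockdown cells and 3 libraries of control cells. Both groups became macrophages over 24 hours in PMA, a phorbol ester, at 100 ng/mL, and then spent 24 hours in interleukin-4 (IL-4) at 20 ng/mL. The knockdown cells were transfected before IL-4, through a lipid reagent, with small interfering RNA against the long noncoding RNA RP11-184M15.1. The control cells carry the genotype label WT, and the labels do not say what they received in place of that siRNA. The comparison asks which transcripts differ in IL-4-treated macrophages once RP11-184M15.1 is targeted.

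Library totals were between 12029360 and 14181343 counts in knockdown and between 10450043 and 12113848 counts in control. No gene of the table is named RP11-184M15.1, so its level is not analysed here and the knockdown was not checked. The long intergenic noncoding RNA AC078850.1, picked after its values were seen for its strong reduction, was 84.5% lower in knockdown, and no source used here ties it to RP11-184M15.1. All 7 macrophage and monocyte markers were present, and they summed to between 4508 and 4714 CPM, the count scaled to a common library size, in knockdown and between 4552 and 4824 CPM in control. Among these 7, CD14 was higher and LYZ lower in knockdown (log2 fold change 0.34 and -0.40). Of the markers of other cells, 8 of 17 were in the table. TRAC held 7.16 to 8.02 CPM in knockdown and 4.63 to 5.68 CPM in control and passed the test (edgeR adjusted p = 0.0409), while the other 3 T cell markers, CD3D, CD3E and CD3G, are not analysed here. The markers of B cells, epithelial cells and fibroblasts each summed to at most 2.55 CPM in any library. Knockdown replicate 3 stood apart in 1 respect, with 89 counts of HBA1 and 92 of HBB, the haemoglobin genes, against at most 2 of either in every other library. Their part in the results below was not tested, and the calls without that library are given with the others. The labels do not say that the replicates were separate cultures, so a p-value here weighs a difference against a spread that may be only technical.

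The levels of the 55 genes spanned several orders of magnitude. Levels are compared between genes as CPM per kilobase of merged exons. RAB5C, which acts at early endosomes, was highest, with 188 ± 3.11 CPM per kilobase in knockdown and 189 ± 1.26 in control (SD, n = 3 each). RAB7A, the RAB of late endosomes and lysosomes, followed with 160 ± 2.45 CPM per kilobase in knockdown and 143 ± 3.02 in control. RAB13, a RAB of surface delivery known from epithelial junctions, had 126 ± 2.504 CPM per kilobase in knockdown and 116 ± 7.01 in control. The levels of these 3 genes did not overlap between one gene and the next within a group. RAB31, which works between the trans-Golgi network and endosomes, came next with 108 ± 1.09 CPM per kilobase in knockdown and 121 ± 1.02 in control, and in control its level lay within the spread of RAB13. RAB1B, needed for transport from the endoplasmic reticulum to the Golgi, followed with 85.1 ± 2.82 CPM per kilobase in knockdown and 83.7 ± 1.496 in control. The order depends on the length used, a choice added after the data were seen. With the median transcript length in place of the merged exons, RAB7A led with 637 CPM per kilobase over all 6 libraries. RAB5C followed with 216, RAB13 with 152, RAB2A with 151 and RAB31 with 115. The lead of RAB7A rests on short annotated transcripts, with a median of 533 bases against 2245 bases of merged exons.

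**Figure D1:**
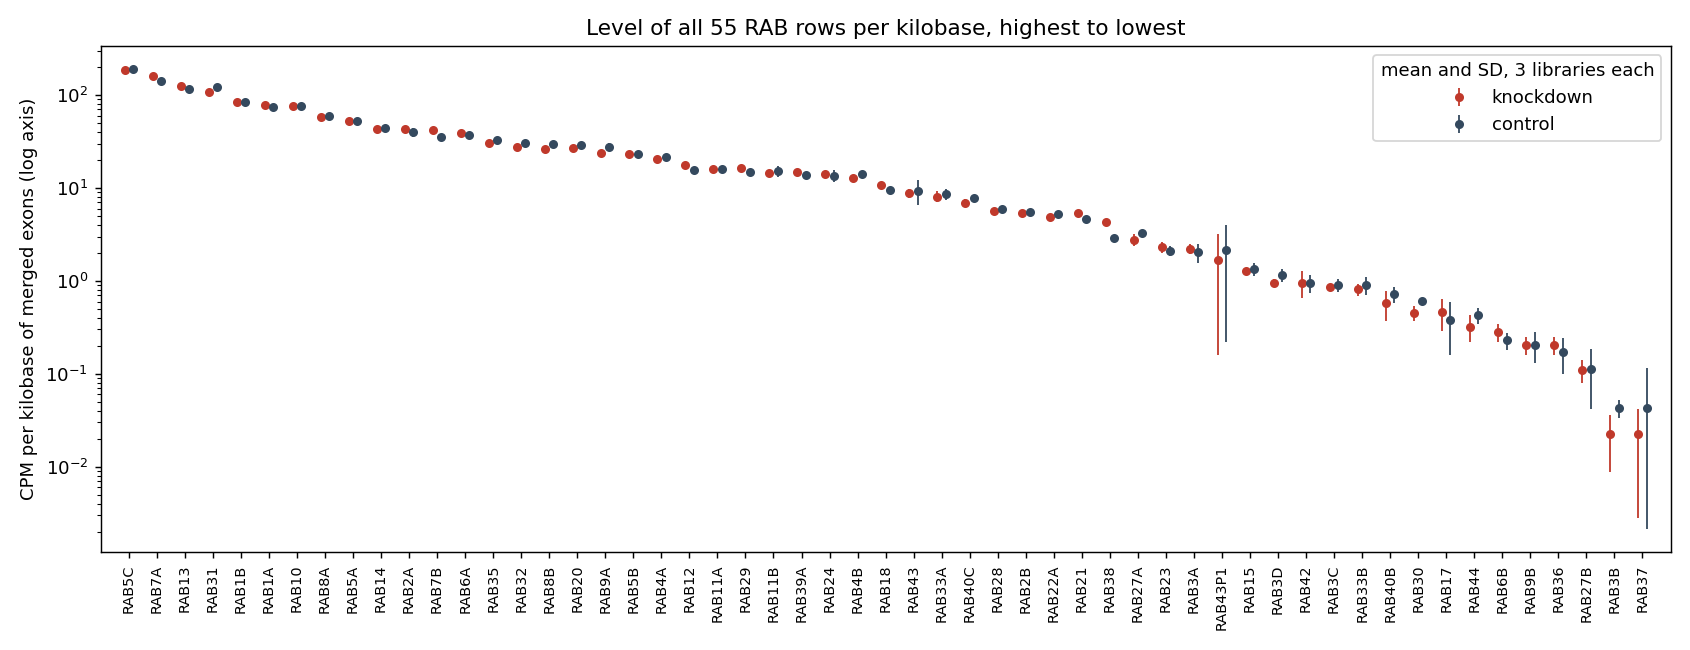
Mean level of all 55 RAB genes, in CPM per kilobase of merged exons on a log axis, ordered by the mean over all libraries. For each gene the left point is knockdown and the right point control, with bars of 1 SD over 3 libraries that are shortened where they would reach 0. RAB5C stands first at 188 in knockdown and 189 in control, and RAB3B and RAB37 stand last.

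At the low end, 6 members had too few counts to be tested, namely RAB17, RAB27B, RAB36, RAB37, RAB3B and RAB9B. RAB37, a RAB of secretory granules, had 0, 2 and 2 counts in knockdown and 0, 0 and 6 in control. RAB3B, of the family of regulated exocytosis, had 6, 2 and 3 counts in knockdown and 7, 5 and 6 in control. A library at 0 counts allows up to 3 counts, which is 0.21 to 0.29 CPM at these depths, by counting error alone.

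As a family, the RAB genes differed little between the groups. Summed over all 55, they made up 4051, 4032 and 4062 CPM in knockdown and 4114, 3991 and 4018 CPM in control, and these ranges overlapped. In edgeR's quasi-likelihood test, with p-values adjusted over all tested genes, 3 RAB genes were higher in knockdown (RAB21, RAB7B and RAB38) and 1 was lower (RAB31) at an adjusted p under 0.05. Over all tested genes 1.22% were called higher, 1.61% lower and 2.83% in either direction. For the 49 RAB genes the share in either direction was 8.16%. Calls came more easily to abundant genes: 0.667% of genes below a log2 CPM of 3 were called, 1.89% of those from 3 to 5, 4.08% of those from 5 to 7 and 7.53% of those of 7 and above. The RAB genes had 1 call among 12 genes, 0 among 10, 2 among 14 and 1 among 13 in these same bins. The median log2 fold change of the tested RAB genes was -0.048, beside -0.002 for all tested genes, with 19 genes above 0 and 30 below. The values ran from -0.41 in RAB44 to 0.59 in RAB38.

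The groups of libraries did not overlap in 15 of the 49 RAB genes (30.6%), where the 3 knockdown libraries all lay above the controls in 7 genes and all below in 8. Over all tested genes this share was 20.0%. By level, in the same bins, it was 13.6%, 17.9%, 23.8% and 32.1% of all genes, beside 2 of 12, 1 of 10, 7 of 14 and 5 of 13 RAB genes. Members were sorted by the compartment at which each is best known, although many act at more than one. The sorting was made by hand with earlier results of these data known, and the counts by compartment depend on it. By compartment, the groups did not overlap in 7 of 8 tested RABs of late endosomes and lysosomes, 3 of 8 at early endosomes, 3 of 11 in recycling and surface delivery, 1 of 12 between the endoplasmic reticulum and the Golgi, 0 of 5 in regulated secretion and 1 of 4 in the cilium and other group. No test of a difference between these groups was made.

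**Figure D2:**
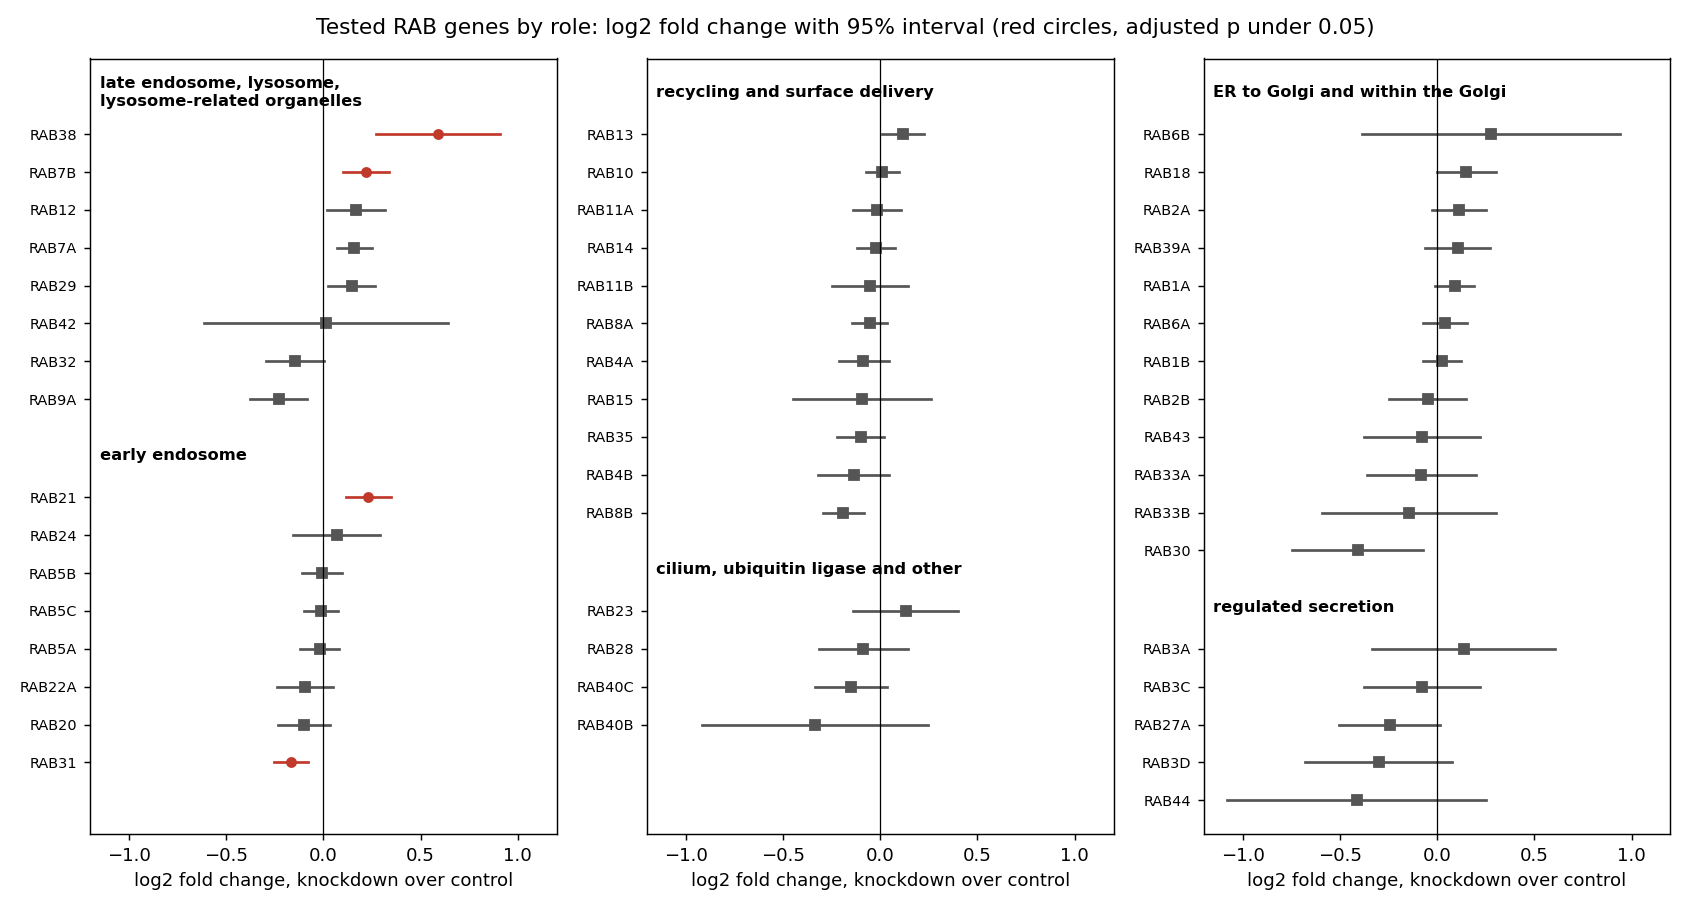
Log2 fold change, knockdown over control, of the 48 tested RAB genes other than the pseudogene, sorted by compartment and by value. Points are edgeR estimates with 95% intervals, and red circles mark an adjusted p under 0.05. In the late endosome and lysosome group 6 of 8 estimates lie above 0, with RAB38 at 0.59, and in recycling and surface delivery 9 of 11 lie below 0.

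The RABs of late endosomes, lysosomes and lysosome-related organelles had 2 of 8 tested members higher in knockdown and 0 lower. Their median log2 fold change was 0.15, with 6 above 0 and 2 below. Summed over 9 genes, their level was 668, 691 and 673 CPM in knockdown and 630, 624 and 611 CPM in control, so that every knockdown library lay above every control library. Without RAB7A and RAB7B the sum of the other 7 was 185 ± 1.31 CPM in knockdown and 186 ± 5.21 CPM in control (SD, n = 3 each), and the groups overlapped. That sum holds shifts in both directions. The knockdown libraries lay all above the controls in RAB38, RAB29 and RAB12 and all below them in RAB9A and RAB32. In bulk RNA, less RNA per cell and fewer cells of a type cannot be told apart.

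RAB7B returns cargo from late endosomes to the trans-Golgi network. It held 123, 142 and 136 CPM in knockdown and 112, 117 and 116 CPM in control. All knockdown libraries lay above all controls, with knockdown replicate 1 nearest to them. RAB7B rose by a log2 fold change of 0.22 ± 0.06 SE (95% interval 0.10 to 0.34, edgeR adjusted p = 0.0443). The gene lies on GRCh38 chromosome 1, 205976740 to 206003461, minus strand, and overlaps no other annotated gene. None of its 31-base words occur in the transcripts of another gene.

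RAB38 works with its relative RAB32 in the making of melanosomes and other lysosome-related organelles. Its counts were small, 76, 94 and 75 in knockdown and 46, 50 and 42 in control. This came to 6.16, 6.59 and 6.16 CPM in knockdown and 4.35, 4.19 and 4.04 CPM in control, with no overlap. With so few counts, the small spread within each group may understate the error. RAB38 rose by a log2 fold change of 0.59 ± 0.15 SE (95% interval 0.27 to 0.91, edgeR adjusted p = 0.0477), the highest among the 49 tested members. It lies on GRCh38 chromosome 11, 88113242 to 88175467, minus strand. AP001642.1 overlaps it on its own strand and the antisense gene AP005436.2 on the other. None of the 31-base words of RAB38 occur, on either strand, in the transcripts of another gene. RAB32 went the other way in its values, with 31.8, 35.6 and 33.6 CPM in knockdown and 36.4, 38.8 and 36.5 CPM in control. These did not overlap, but the difference did not pass the test (log2 fold change -0.14, edgeR adjusted p = 0.347).

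RAB7A recruits the effectors that carry late endosomes and phagosomes to lysosomes and fuse them there. It held 359, 363 and 352 CPM in knockdown and 327, 322 and 313 CPM in control. The groups did not overlap, and the log2 fold change of 0.16 (95% interval 0.07 to 0.25) missed the threshold (edgeR adjusted p = 0.0557). RAB7A was called higher in 5 of 13 alternative settings, among them DESeq2 (adjusted p = 0.0159), RLE normalization (0.0488) and limma-voom (0.0499).

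RAB9A, which recycles mannose 6-phosphate receptors from late endosomes to the Golgi, had 47.9, 47.1 and 50.2 CPM in knockdown and 62.7, 53.6 and 53.8 CPM in control. The knockdown libraries were all lower, and control replicate 1 was the highest of the 6. The difference did not pass (log2 fold change -0.23, edgeR adjusted p = 0.0948). RAB29, a partner of the kinase LRRK2 at the Golgi and lysosomes, had 58.0, 56.1 and 55.02 CPM in knockdown and 49.1, 51.8 and 51.9 CPM in control (log2 fold change 0.15, edgeR adjusted p = 0.224). RAB12, which directs the transferrin receptor to lysosomes, had 37.7, 38.4 and 37.4 CPM in knockdown and 36.3, 33 and 31.7 CPM in control (log2 fold change 0.17, edgeR adjusted p = 0.252). In RAB29 and RAB12 the knockdown libraries all lay above the controls, and neither passed the test.

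**Figure D3:**
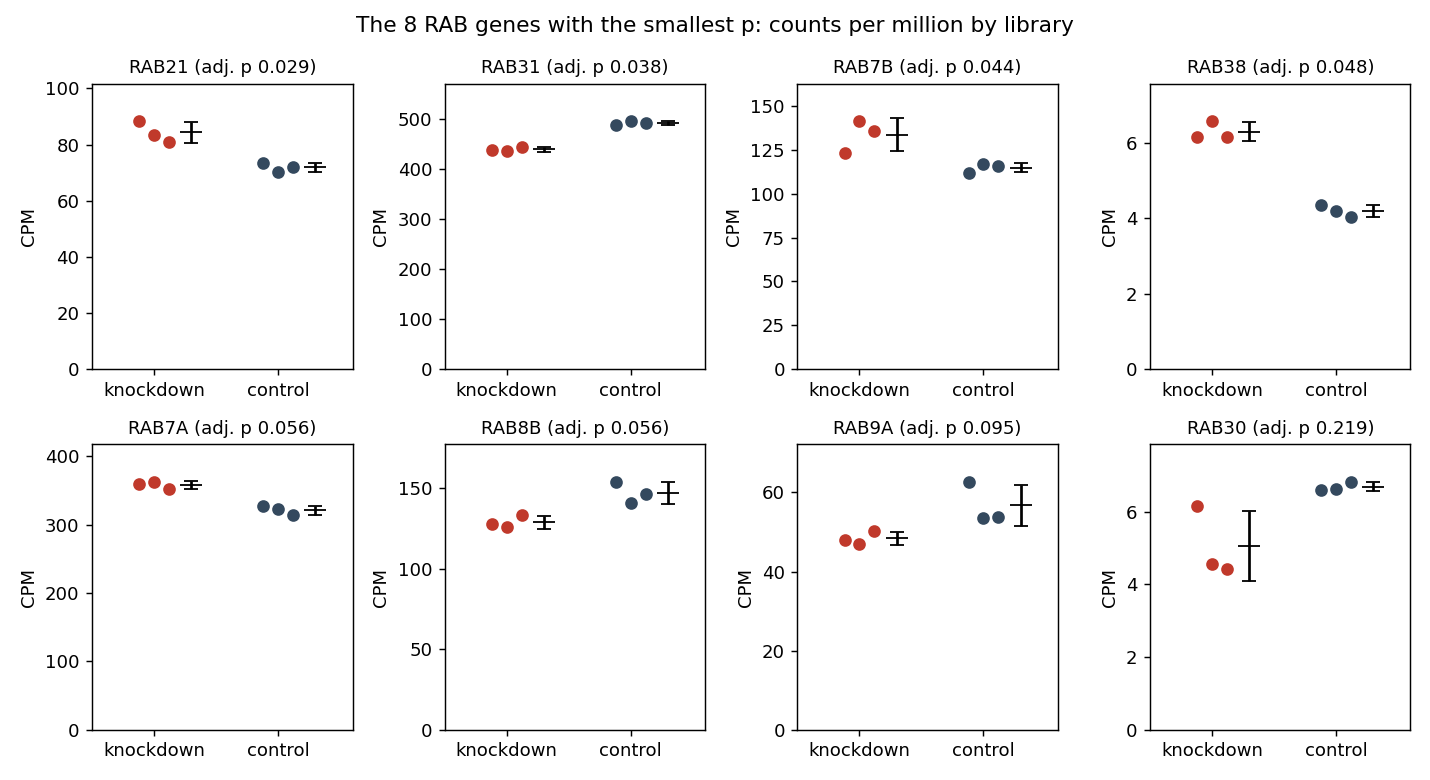
CPM in each library for the 8 RAB genes with the smallest p, knockdown left and control right in each panel, with the mean and 1 SD over 3 libraries drawn beside the points. The vertical axes start at 0 and differ between panels. In all 8 panels the 2 groups do not overlap, and the gap is largest relative to its level in RAB38.

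Among the RABs of early endosomes, 1 of 8 tested members was higher in knockdown and 1 was lower, with a median log2 fold change of -0.016, 2 members above 0 and 6 below. RAB21 takes part in the endocytosis and return of integrins. It held 88.5, 83.6 and 81.1 CPM in knockdown and 73.5, 70.1 and 71.9 CPM in control, with no overlap. RAB21 rose by a log2 fold change of 0.23 ± 0.05 SE (95% interval 0.12 to 0.35, edgeR adjusted p = 0.0289), or 17.5%. It lies on GRCh38 chromosome 12, 71754874 to 71800285, plus strand. The lincRNA AC089984.1 lies on the opposite strand, and 13.9% of the 31-base words of RAB21 occur in transcripts of other genes, so part of its reads may have been divided.

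RAB31, a close relative of RAB22A, was the RAB gene that fell. It held 437, 435 and 443 CPM in knockdown and 487, 496 and 492 CPM in control. These values were tight within each group and did not overlap, and the fitted fall was small, at 10.8%. The log2 fold change was -0.17 ± 0.04 SE (95% interval -0.25 to -0.08, edgeR adjusted p = 0.0376). RAB31 lies on GRCh38 chromosome 18, 9708165 to 9862551, plus strand, where it overlaps the pseudogene ZNF415P1 on its own strand. On the other strand it overlaps the antisense gene AC006238.2, pseudogenes and RN7SL862P. Only 0.199% of its 31-base words are shared. The early endosome group as a whole summed to 1258, 1236 and 1237 CPM in knockdown and 1304, 1286 and 1295 CPM in control, without overlap. Without RAB31 the sum was 805 ± 14.0 CPM in knockdown and 803 ± 13.3 CPM in control (SD, n = 3 each), and the groups overlapped. That sum still holds RAB21, which was higher in knockdown, and RAB20, which was lower in every knockdown library.

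The RAB5 genes, whose products build the early endosome, showed no difference that the libraries could resolve. RAB5C had 364, 360 and 353 CPM in knockdown and 360, 365 and 362 CPM in control. Its 95% interval for the log2 fold change ran from -0.10 to 0.07, that of RAB5A from -0.12 to 0.08 and that of RAB5B from -0.11 to 0.10. RAB20, found on endosomes and maturing phagosomes, had 41.5, 41.0 and 39.4 CPM in knockdown and 45.8, 42.1 and 42.9 CPM in control. It was lower in every knockdown library but not past the test (edgeR adjusted p = 0.501).

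The promoters of RAB21 and RAB31 are shown because these 2 early endosome genes moved in opposite directions and hold the same short motif. That of RAB7B is shown as a called gene without it, at 1 of its 2 listed starts. RAB38, also called, had no promoter to show. The sequences are from RefSeq on GRCh38.p14, from 250 bases before to 50 after the annotated start, 5′ to 3′ on the strand of the gene. The promoter of RAB21 is chr12:71754613-71754912 on the plus strand, that of RAB31 is chr18:9708051-9708350 on the plus strand, and that of RAB7B is chr1:206003346-206003645 on the minus strand. Capitals mark CACGTG, the core of the E-box that basic helix-loop-helix factors read. It begins 20 bases before the RefSeq start of RAB21 and 60 before that of RAB31. GENCODE starts RAB31 further upstream, at 9708165, so by that annotation the motif of RAB31 lies inside the gene.
RAB21: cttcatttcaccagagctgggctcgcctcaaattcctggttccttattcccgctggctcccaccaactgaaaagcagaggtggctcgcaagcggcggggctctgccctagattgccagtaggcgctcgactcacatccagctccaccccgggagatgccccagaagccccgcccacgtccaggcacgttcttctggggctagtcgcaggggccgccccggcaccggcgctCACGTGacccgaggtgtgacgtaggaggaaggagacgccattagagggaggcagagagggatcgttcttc
RAB31: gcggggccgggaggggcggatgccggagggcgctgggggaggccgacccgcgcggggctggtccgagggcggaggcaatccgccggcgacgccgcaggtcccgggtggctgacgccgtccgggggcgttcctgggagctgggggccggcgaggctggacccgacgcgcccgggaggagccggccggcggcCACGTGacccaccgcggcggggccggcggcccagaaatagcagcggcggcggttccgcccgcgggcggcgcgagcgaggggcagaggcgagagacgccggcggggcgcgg
RAB7B: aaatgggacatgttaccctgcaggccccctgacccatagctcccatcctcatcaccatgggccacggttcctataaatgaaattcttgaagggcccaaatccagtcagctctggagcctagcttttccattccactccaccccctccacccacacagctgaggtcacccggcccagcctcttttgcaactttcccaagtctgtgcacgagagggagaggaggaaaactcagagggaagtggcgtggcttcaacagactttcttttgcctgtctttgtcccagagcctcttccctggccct
CACGTG is its own reverse complement, so 1 search covers both strands. It was present in 6 of the 43 RAB genes with a promoter in the table (14.0%), namely RAB21, RAB24, RAB29, RAB31, RAB4A and RAB5A, and in 8.78% of 27305 genes. The longer CACGTGAC, which contains it and was searched on both strands, was present in 5 of these 6, all but RAB4A, which is 11.6% of the 43 RAB genes and 2.93% of all genes. GAGGAAGT, a form of the motif of the macrophage factor PU.1 searched on both strands, was present in RAB40C alone, 2.33% of the 43, and in 3.15% of all genes. The median log2 fold change was 0.025 in the 6 RAB genes with CACGTG and -0.048 in the 33 tested RAB genes with a promoter in the table and no match. The 27305 genes were not matched to the RAB genes by type or level, so these shares compare unlike sets. A match describes the letters of the window and is no evidence of binding.

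The RABs of recycling and surface delivery had no call in 11 tested members, with a median log2 fold change of -0.054, 2 above 0 and 9 below. RAB8B, which with RAB8A serves delivery to the surface, came nearest. It had 127, 126 and 133 CPM in knockdown and 154, 141 and 146 CPM in control. The knockdown libraries were all below the controls, and the log2 fold change of -0.19 (95% interval -0.30 to -0.08) missed the threshold (edgeR adjusted p = 0.0561). RAB13 had 197, 200 and 205 CPM in knockdown and 194, 188 and 173 CPM in control, all higher in knockdown but not past the test (log2 fold change 0.12, edgeR adjusted p = 0.269). The main recycling RAB, RAB11A, had 77.3, 79.0 and 78.1 CPM in knockdown and 85.9, 75.6 and 75.6 CPM in control, where 1 control library was high and the other 2 were below the knockdown libraries. RAB10, which brings glucose transporters and receptors to the surface, had close values in the 2 groups, with 269, 268 and 270 CPM in knockdown and 269, 266 and 266 CPM in control. Its 95% interval for the log2 fold change ran from -0.08 to 0.10.

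Between the endoplasmic reticulum and the Golgi and within the Golgi, 0 of 12 tested members passed, with a median log2 fold change of 0.033, 7 above 0 and 5 below. RAB18, which sits on the endoplasmic reticulum and on lipid droplets, had 51.3, 52.1 and 59.0 CPM in knockdown and 53.0, 47.2 and 45.9 CPM in control. The groups overlapped through control replicate 1 (log2 fold change 0.15, edgeR adjusted p = 0.339). RAB30, a Golgi RAB, had 6.16, 4.56 and 4.43 CPM in knockdown and 6.61, 6.62 and 6.83 CPM in control. Knockdown replicate 1 lay close to the controls and the other 2 well below them (log2 fold change -0.41, edgeR adjusted p = 0.219). RAB2A, which tethers membranes between the endoplasmic reticulum and the Golgi, had 168, 157 and 172 CPM in knockdown and 172, 142 and 146 CPM in control. Only without control replicate 1, among the settings tried, was RAB2A called higher. RAB39A, sorted here but also known from macrophage phagosomes, had 26.4, 27.4 and 28.3 CPM in knockdown and 27.1, 23.5 and 25.8 CPM in control, with overlap.

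The RABs of regulated secretion were sparse, as 5 of 8 were tested and all 8 together summed to 30.6, 25.4 and 28.0 CPM in knockdown and 31.3, 30.8 and 33.2 CPM in control. Of the 5, 1 was above 0 and 4 below, with a median log2 fold change of -0.24 and 0 past the threshold. RAB27A, which docks secretory lysosomes and exosome-bearing endosomes, had 11.99, 9.19 and 9.61 CPM in knockdown and 11.2, 12.5 and 12.7 CPM in control. Knockdown replicate 1 lay among the controls, and the difference did not pass (log2 fold change -0.24, edgeR adjusted p = 0.368). In the cilium and other group, 0 of 4 passed. RAB40C, part of a ubiquitin ligase, had 22.3, 21.0 and 18.9 CPM in knockdown and 22.6, 22.5 and 24.0 CPM in control, without overlap and not past the test (edgeR adjusted p = 0.455).

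Close relatives were set against each other within each library, as the log2 ratio of their CPM, in 14 pairs. An exact two-sided permutation test of 3 against 3 libraries cannot go below p = 0.1, so no pair could pass, and the smallest p adjusted over the 14 pairs was 0.467. RAB38 to RAB32 had the widest shift, with log2 ratios of -2.37, -2.43 and -2.45 in knockdown and -3.07, -3.21 and -3.17 in control. The difference was 0.73, with no overlap (exact permutation p = 0.1). RAB8B to RAB8A had log2 ratios of -0.36, -0.37 and -0.31 in knockdown and -0.13, -0.27 and -0.23 in control, a difference of -0.13, again with no overlap (exact permutation p = 0.1). RAB3A to RAB3D had log2 ratios of -0.227, -0.302 and -0.397 in knockdown and -0.404, -1.301 and -0.522 in control. These barely missed an overlap, and the difference of 0.43 leans on control replicate 2. Both genes had at most 5.78 CPM in any library. The other 11 pairs overlapped between groups. RAB7B to RAB7A differed by 0.06 (exact permutation p = 0.5), with both members higher in each knockdown library than in the controls, and RAB5A to RAB5C by -0.004 (exact permutation p = 0.9).

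RAB genes are a multigene family, and estimated counts divide reads that could belong to several genes. Over the 55 members, a median of 5.6% of the 31-base words of a gene also occurred in transcripts of other genes. The share was under 5% in 26 members and at least 20% in 12. Among the latter were RAB5C (30.9%), RAB13 (28.0%), RAB1B (42.3%) and RAB8A (42.5%). The levels given above for these genes, and the ratio of RAB8B to RAB8A, may be affected. RAB43 is the clearest case, since 81.4% of its words are shared, mainly with the read-through gene ISY1-RAB43, and its pseudogene RAB43P1 shares 93.2%. RAB43 had 461, 574 and 560 counts in knockdown and 347, 482 and 598 in control. ISY1-RAB43 had 409, 337 and 317 counts in knockdown and 397, 385 and 138 in control. In control replicate 3 the read-through gene was lowest and RAB43 highest. Their sum was steadier than either, at 70.5, 63.9 and 72.02 CPM in knockdown and 70.3, 72.6 and 70.8 CPM in control. RAB43P1 was at 0 in knockdown replicate 1 and control replicate 3 and had 15 to 25 counts in the other 4 libraries. Values of RAB43 and RAB43P1 are therefore uncertain.

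Regulators of RAB proteins were described through a list of 115 genes, of which 113 were in the table and 111 were tested. Of these, 1 was higher in knockdown and 2 were lower, 2.70%, which is near the 2.83% of all tested genes. Their median log2 fold change was -0.004, with 54 above 0 and 57 below, and the groups did not overlap in 20.7%. The 3 calls were all among the 57 exchange factors, while 0 of 36 GTPase-activating proteins and 0 of 18 genes of prenylation and delivery passed. SBF1, a DENN-domain protein of the myotubularin family, had 98.8, 106 and 102 CPM in knockdown and 81.2, 89.8 and 86.5 CPM in control. It rose by a log2 fold change of 0.25 ± 0.05 SE (edgeR adjusted p = 0.0183), with no overlap. TRAPPC11, a subunit of the TRAPP complex that activates RAB1, had 110, 103 and 108 CPM in knockdown and 128, 121 and 122 CPM in control. It fell, with a log2 fold change of -0.21 ± 0.05 SE (edgeR adjusted p = 0.0335) and no overlap. DENND10, a DENN-domain protein of late endosomes that the table lists as FAM45A, had 27.2, 23.6 and 27.4 CPM in knockdown and 38.2, 31.3 and 32.1 CPM in control. Its log2 fold change was -0.38 ± 0.09 SE (edgeR adjusted p = 0.0329). It shares 25.5% of its 31-base words with other genes, most with FAM45BP, so its counts are uncertain.

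Some known exchange factors of RAB genes described above, called or not, were also read, chosen after their values were seen. They do not stand for all 57 tested exchange factors, whose log2 fold changes ran from -0.38 to 0.58, with 29 above 0 and 28 below. In 12 of the 57 (21.1%) the groups did not overlap, beside 20.0% of all tested genes. HPS1 and HPS4, which together activate RAB32 and RAB38, had log2 fold changes of -0.05 and 0.03 (edgeR adjusted p = 0.759 and 0.914). MON1A, MON1B and CCZ1, of the complex that activates RAB7A, had 0.02, 0.0006 and -0.11, and GAPVD1, an exchange factor for RAB5 and RAB31, had -0.01, and none of these passed. ANKRD27, an exchange factor for RAB21, had a log2 fold change of -0.0036 and did not pass (edgeR adjusted p = 0.99). GDI2, which extracts RABs from membranes, had 344, 344 and 369 CPM in knockdown and 403, 391 and 381 CPM in control. It was lower in every knockdown library but not past the threshold (log2 fold change -0.15, edgeR adjusted p = 0.0929).

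Effectors and tethers were described through a list of 99 genes, of which 92 were in the table and 87 were tested. None was called by edgeR, DESeq2 or limma-voom. An unadjusted edgeR p under 0.05 was found in 10 of the 87, a smaller share than the 2025 of all 13405 tested genes. Their median log2 fold change was 0.018, with 51 above 0 and 36 below, and the groups did not overlap in 18.4%, beside 20.0% of all genes. The 2 with the smallest p were KIFC3, a Golgi and minus-end motor, and EEA1, the tether that RAB5 recruits to early endosomes. EEA1 had 74.2, 68.9 and 75.9 CPM in knockdown and 64.2, 63.8 and 65.3 CPM in control, all higher in knockdown but not past the test (log2 fold change 0.18, edgeR adjusted p = 0.11). The lysosomal effectors of RAB7A, RILP and PLEKHM1, had log2 fold changes of 0.02 and 0.02, and neither passed.

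The 4 calls lay close to the threshold and depended on the libraries and, for RAB7B and RAB38, on the method. With all 6 libraries, RAB7B and RAB38 were not called by limma-voom (adjusted p = 0.0525 and 0.0549) or with no filter on low counts (adjusted p = 0.0559 and 0.0510). RAB21 and RAB31 each kept their call in 9 of 13 alternatives, RAB7B in 7 of 13 and RAB38 in 3 of the 12 that gave it an adjusted p. All 4 were lost without knockdown replicate 2, without knockdown replicate 3 or without control replicate 2, and without knockdown replicate 1 only RAB7B remained. Without control replicate 1, RAB21, RAB7A and RAB2A were called higher and RAB31 lower. Without control replicate 3, RAB21 and RAB7B were called higher and RAB31 lower. Over all 13 alternatives the adjusted p of RAB21 ran from 0.0145 to 0.164, that of RAB31 from 0.00687 to 0.176 and that of RAB7B from 0.0214 to 0.258, and over 12 that of RAB38 ran from 0.0458 to 0.192. The log2 fold changes kept their sign in every alternative that gave an adjusted p. They ran from 0.20 to 0.26 in RAB21 and from -0.17 to -0.16 in RAB31. In RAB7B they ran from 0.18 to 0.27, and in RAB38 from 0.55 to 0.61. SBF1 was not called without knockdown replicate 2 (adjusted p = 0.135) or 3 (0.0876). TRAPPC11 and FAM45A were not called without any 1 of the knockdown replicates or without control replicate 2 (adjusted p from 0.0572 to 0.212), nor was FAM45A without control replicate 1 (0.0724).

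**Figure D4:**
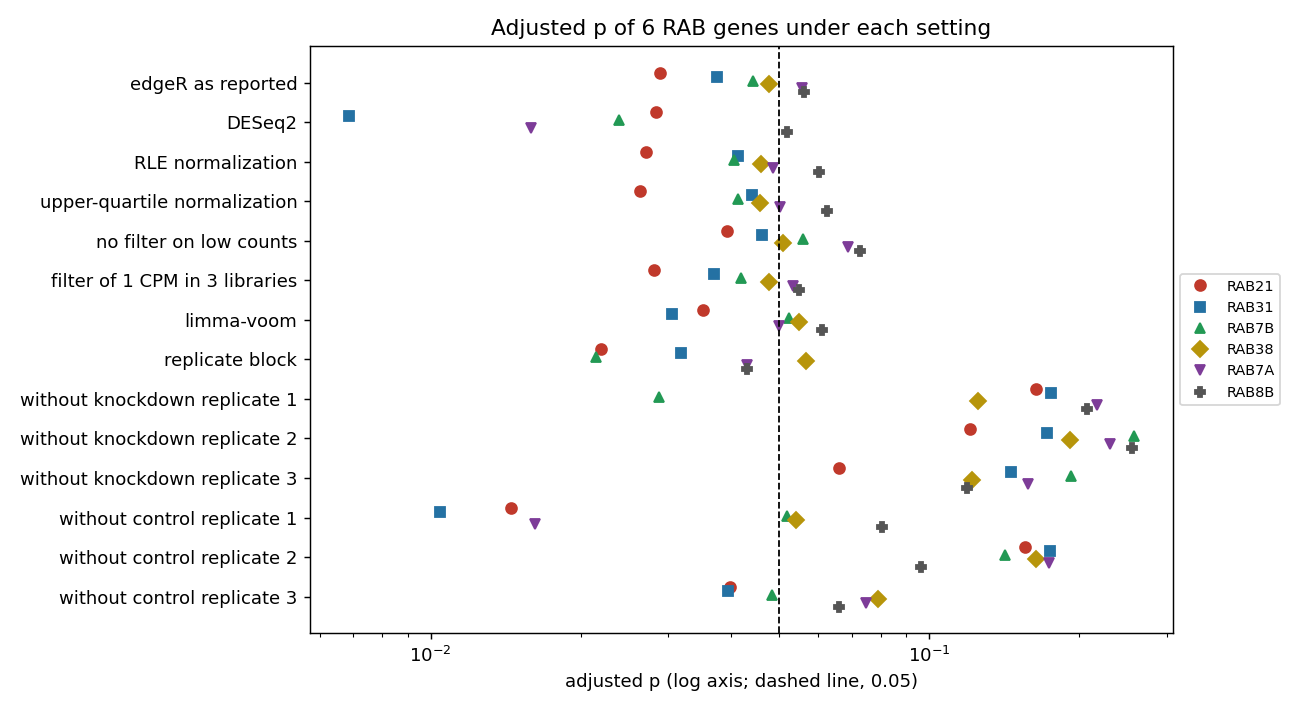
Adjusted p, on a log axis, of the 4 called RAB genes and of RAB7A and RAB8B in the reported edgeR fit and in each alternative setting, with a dashed line at 0.05. RAB21 and RAB31 each lie left of the line in 9 of 13 alternatives, RAB7B in 7 of 13 and RAB38 in 3 of 12. All 6 genes lie right of it without knockdown replicate 2, without knockdown replicate 3 and without control replicate 2.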

How the data were processed

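Polyadenylated RNA of 6 THP-1 macrophage libraries, 3 knockdown and 3 control, was grouped by sample title. The table the authors deposited holds expected counts per gene symbol, all whole numbers (100%), with a lowest row sum of 10. The submitters' processing notes name Salmon 0.11.2, DESeq2 and hg38 without saying what each was for. The rounding of the estimates and any use of strand are not stated by any source at hand.

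Counts were tested with edgeR 4.0.16 quasi-likelihood (two-sided, a group term alone, TMM factors, filterByExpr; Benjamini-Hochberg adjustment over all 13405 tested genes; threshold 0.05). Standard errors are approximate, the log2 fold change over the root of its F value. CPM values use TMM factors. Alternatives were DESeq2 1.42.0, limma-voom 3.58.1, upper-quartile and RLE normalization, no filter, 1 CPM or more in 3 or more libraries, the replicate number as a block and leaving out each library. Positions, overlaps, lengths and shared 31-base words came from GENCODE 29 (GRCh38), which matched 16651 of 17042 symbols by a unique name, and promoters from RefSeq. Of 115 regulators, 2 were found under older symbols.

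The members and lists were chosen with earlier results of these data known. Named genes were the RAB genes past the threshold, the 8 next by p, the 5 highest per kilobase, the lowest by count, paralog groups, and up to 12 regulators and effectors in each direction past the threshold. RAB genes named beyond these, exchange factors named by partner, and GDI2, KIFC3, EEA1, RILP and PLEKHM1 were chosen after their values were seen.

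Libraries held 10450043 to 14181343 counts. Within groups, no 2 libraries agreed within sampling noise (chi-square over its degrees of freedom, 1.9 to 6.79). On simulated data for knockdown against control (13405 genes, 3 simulations), edgeR recovered 52.7% of 1.25-fold changes, 68.7% of 1.5-fold and 88.7% of 2-fold changes. Of what it called, 7.11% was unchanged. The estimated changes of RAB21, RAB7B and RAB31 were smaller than 1.25-fold, so the recovery rates do not cover them. Scripts ran in R 4.3.3 and in Python 3.11.15 with pandas 2.3.3, numpy 2.4.6, matplotlib 3.10.9 and scipy 1.17.1.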

Additional observations from a re-analysis of the deposited data

How the results depend on the processing

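Fold changes under the alternatives were computed for 15 genes, the 4 called RAB genes, the 8 next by p and the 3 called regulators, and not for the other genes named. Of their 193 values, 153 kept their side of the threshold, 34 lost a call, 6 gained one and 0 changed sign. Leaving out 1 library moved the number of RAB genes called higher between 0 and 3 and called lower between 0 and 1, the number of regulators called higher between 0 and 2 and lower between 0 and 3, and the median log2 fold change of the RAB genes between -0.04 and -0.011. Over all genes these fits called between 139 and 542 genes, against 379 with all libraries. Why single libraries move these counts was not tested. With no filter on low counts, 1 RAB gene was called higher, and with limma-voom 2 were, RAB21 and RAB7A. No effector or tether was called under any alternative. DESeq2 gave RAB38 no adjusted p. The level of RAB7A per kilobase moved to 637 CPM with the median transcript length, which is only 533 bases for this gene.

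Replicate numbers were not taken as pairs in the main fit. The deviations of same-numbered libraries correlated by 0.0625, 0.105 and 0.0668, and those of libraries with different numbers by -0.054 to -0.0147. Every library thus correlated best with its own number, so pairing is not excluded. With the replicate block, 3 RAB genes were called higher (RAB21, RAB7A and RAB7B) and 2 lower (RAB31 and RAB8B), RAB38 had an adjusted p of 0.0566, and 488 genes were called in all.

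Depth limits the members with few counts. RAB44, for example, had a 95% interval of the log2 fold change from -1.08 to 0.25, and the 6 untested members gave no value.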

Other observations

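Genes with RAB-like names or domains outside the rule were also read. RABL3, a RAB-like GTPase, had 30.7, 30.8 and 35.2 CPM in knockdown and 39.9, 35.6 and 37.2 CPM in control, all lower in knockdown but not past the threshold (log2 fold change -0.22, edgeR adjusted p = 0.149). RABL6 had 193, 194 and 183 CPM in knockdown and 193, 207 and 194 CPM in control (log2 fold change -0.06), with overlap. IFT27, a RAB-like subunit of intraflagellar transport, had 7.21, 8.98 and 7.64 CPM in knockdown and 8.22, 9.63 and 7.60 CPM in control, with overlap. The antisense gene RAB30-AS1 had 59, 48 and 53 counts in knockdown and 44, 40 and 38 in control, and did not pass (log2 fold change 0.16, edgeR adjusted p = 0.775). None of the 9 such genes that were tested passed.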
